A study of Homo sapiens with 6 samples.

Results

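The KANK proteins, the CARMIL proteins and the actin capping protein that CARMIL proteins regulate were followed in SiHa PR cells with and without P4HA3 overexpression. SiHa is an established human cervical cancer cell line, and the PR cells are the parental cells of a highly lymph node metastatic derivative. P4HA3 encodes an alpha subunit of prolyl 4-hydroxylase. RNA-seq was performed on 3 control libraries (SiHa PR) and 3 libraries of the same cells overexpressing P4HA3 (SiHa PR P4HA3), and read counts were deposited for 60664 genes. According to the supplementary methods, the overexpression construct carried the P4HA3 cDNA in a pCDH vector. The labels do not say whether the control cells carried an empty vector, whether the overexpressing cells were a clone or a pool, or whether replicates were separate cultures, so the p-values measure only the spread between these libraries.

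The set held 10 of the 60664 genes, each found by its symbol and Ensembl identifier: KANK1, KANK2, KANK3 and KANK4, CARMIL1, CARMIL2 and CARMIL3, and CAPZA1, CAPZA2 and CAPZB. KANK4 and CARMIL2 were chosen by their higher counts in the overexpressing libraries of this same comparison, and they brought these families in. Their values in this comparison are therefore a description, without a test. The other 8 genes entered as family members or binding partners of these 2, with earlier results of the same libraries known. All 10 passed the filter on low counts, CARMIL3 only through the control libraries.

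KANK proteins are scaffolds of the cell cortex. They bind talin through a conserved motif near the amino terminus, gather in a belt around integrin adhesions, and link these adhesions to a cortical complex that captures microtubules, with liprins and the kinesin KIF21A as further partners. Capping protein is a heterodimer of an alpha subunit (CAPZA1 or CAPZA2 in most cells) and a beta subunit (CAPZB). It closes the fast-growing barbed ends of actin filaments. CARMIL proteins are large leucine-rich-repeat proteins that bind capping protein and weaken its hold on filament ends, and they act in lamellipodia and cell migration.

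Library totals ran from 21773488 to 24939948 counts, and TMM factors ran from 0.979 to 1.02. The overexpressed gene was checked first: P4HA3 had 86, 62 and 93 counts in the control libraries, against 45042, 44775 and 49097 in the overexpressing libraries, as the labels require. A list of 10 markers was drawn up for squamous carcinoma cells, but not all of them are particular to squamous cells. KRT17, KRT8 and KRT18 were abundant in control cells (5330, 1820 and 941 CPM, the counts scaled to library size with TMM factors). EPCAM (5.76 CPM), KRT14 (1.35) and KRT19 (0.84) were low, and KRT5 and TP63 were below 0.4 CPM on average in each group. The deposited growth protocol describes uterine smooth muscle, but of 9 smooth muscle markers MYH11, DES, CNN1 and LMOD1 were below 0.2 CPM on average in each group, while SMTN (93.2 CPM in control cells), TAGLN (8.83) and ACTA2 (7.77) were present. The summed smooth muscle level was at most 115 CPM in a control library and 111 to 130 CPM in the overexpressing libraries. TAGLN was called higher, ACTG2 was at a log2 fold change of 1.42 (adjusted p = 0.305), and the median over the 4 tested was 0.501. ACTG2 differed by library within both groups. It had 0, 1 and 30 counts in control replicates 1, 2 and 3 and 40, 1 and 44 in overexpressing replicates 1, 2 and 3. In the same order, DES had 1, 1 and 6, then 2, 0 and 8 counts, and MYH11 had 2, 1 and 9, then 7, 1 and 3. Of the 8 tested markers in the list for squamous carcinoma cells, 4 fell and 0 rose. These were CDH1, which encodes E-cadherin (log2 fold change -0.77, adjusted p = 0.00114), KRT18 (-0.40, 0.0108), KRT17 (-0.32, 0.031) and CDKN2A (-0.27, 0.0369). Among all genes tested, 11.4% were called lower. In a fit given below, with trends on GC content and transcript length removed, CDH1 (-0.79) and KRT18 (-0.20) were still called. KRT17 (-0.08, adjusted p = 0.269) and CDKN2A (-0.07, 0.244) were not called in that fit, which called 7.94% of all genes lower. Of the other non-epithelial markers, CD14 (99.8 CPM in control and 45.0 CPM in overexpressing cells) and PECAM1 (2.89 and 1.40 CPM) were lower with overexpression. PTPRC, CD3E, CDH5 and KDR were at or near 0 in both groups. Whether any of these marker differences has a part in the results below was not tested.

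Among all 15130 genes tested, 20.8% were called changed by edgeR's quasi-likelihood test at a Benjamini-Hochberg adjusted p under 0.05, with 9.36% called higher and 11.4% called lower. The groups did not overlap in 40.1% of the genes tested. Of the 8 genes not chosen for their change, 5 were called: CARMIL1, CAPZA1 and CAPZA2 rose, and KANK3 and CARMIL3 fell. CARMIL3 was kept by the filter only through the control libraries, so its call does not support its direction. With at least 10 counts required in every library, CARMIL3 was not tested and 4 were called. KANK1, KANK2 and CAPZB were not called. At an adjusted p under 0.01, which 4.81% of all genes passed, 0 of the 8 were called, and 0 were called without control replicate 2, a fit that called 3.47% of all genes. The groups did not overlap in 7 of the 8, with CAPZB as the exception. In CARMIL3 this separation followed from the filter, which only its control libraries passed.

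Counts also followed the GC content of the genes to an unequal degree from library to library. As a description over genes, a library's deviation from its group was correlated with GC content. Spearman's rho was 0.22, 0.382 and -0.524 in control replicates 1, 2 and 3. It was 0.451, -0.48 and 0.077 in overexpressing replicates 1, 2 and 3, so both groups held libraries of either sign. For the log2 fold change the value over 15107 genes was -0.581. The canonical transcripts of the 10 genes spread widely on this scale, from 37.9% GC in CAPZA1 and 39.8% in CAPZA2 to 64.6% in CARMIL2 and 70.5% in KANK3. A fit in which trends of the libraries on GC content and transcript length were removed is therefore given beside each gene. In that fit 18.5% of all genes were called, 10.6% higher and 7.94% lower against 9.36% and 11.4% above, and of the 8 genes 4 were called, 3 of which (CARMIL1, CAPZA1 and CAPZA2) were called in both fits.

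**Figure D1:**
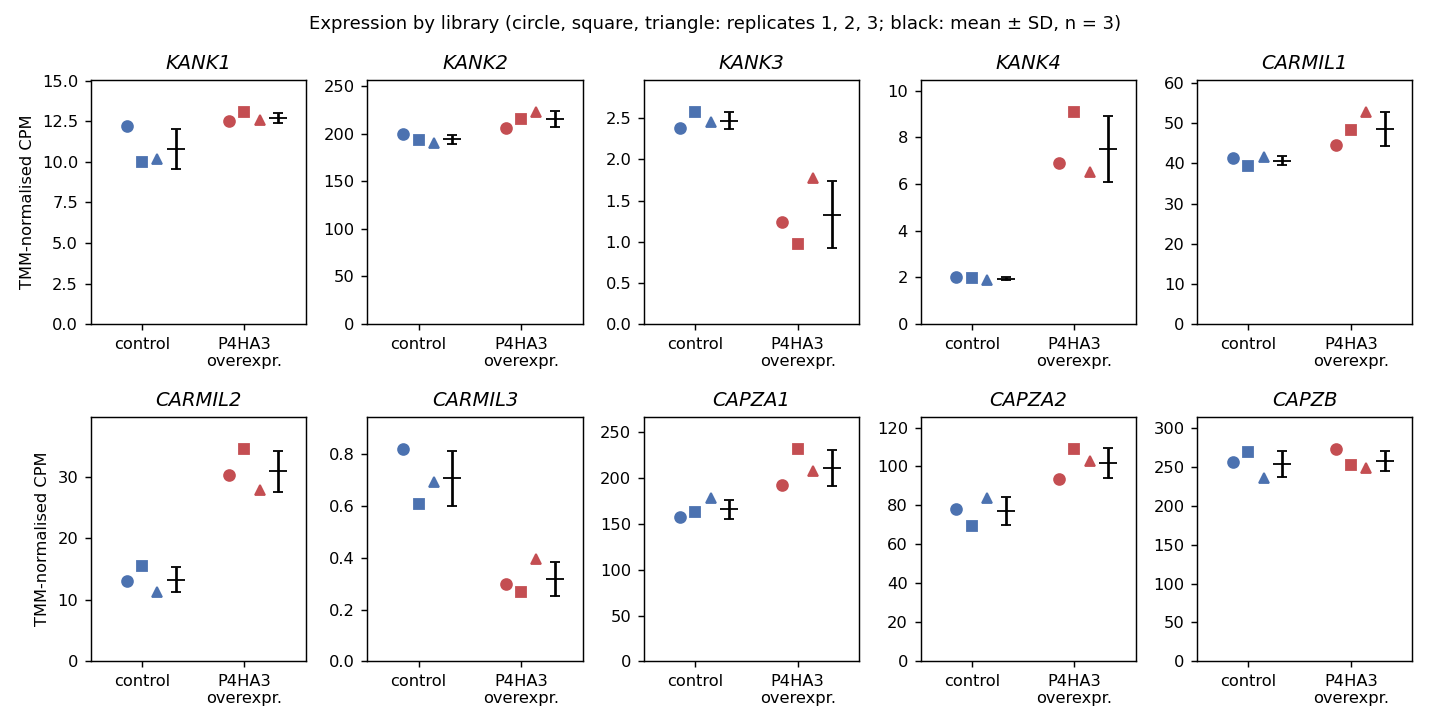
TMM-normalised CPM of the 10 genes in each of the 6 libraries (control in blue, P4HA3 overexpression in red), with the mean and SD of each group in black and every axis starting at 0. The groups are separate in 9 of the 10 genes and overlap in CAPZB, and KANK3 and CARMIL3 are the genes in which the overexpressing libraries lie below the control libraries.

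The upstream sequences of KANK4 and KANK3 are shown because these paralogs had opposite signs. Each is the stretch of 250 bases before the RefSeq transcription start on GRCh38.p14, chr1:62319435-62319684 for KANK4 and chr19:8343263-8343512 for KANK3, both on the minus strand and read 5′ to 3′. Neither stretch overlaps an annotated gene. Capitals mark matches to the motifs searched on both strands, which were GGAATG (TEAD factors), TGANTCA (AP-1), CANNTG (the E-box) and the CArG box of SRF.

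KANK4: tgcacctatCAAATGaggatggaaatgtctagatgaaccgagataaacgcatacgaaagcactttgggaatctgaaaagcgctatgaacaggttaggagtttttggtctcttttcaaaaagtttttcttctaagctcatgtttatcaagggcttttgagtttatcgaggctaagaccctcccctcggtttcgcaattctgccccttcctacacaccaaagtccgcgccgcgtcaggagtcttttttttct
KANK3: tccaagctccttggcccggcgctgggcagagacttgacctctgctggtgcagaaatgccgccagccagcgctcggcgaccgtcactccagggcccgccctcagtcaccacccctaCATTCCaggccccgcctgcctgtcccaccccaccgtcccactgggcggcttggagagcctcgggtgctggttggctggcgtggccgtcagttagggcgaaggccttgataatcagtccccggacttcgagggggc

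The KANK4 stretch holds an E-box, and the KANK3 stretch holds the TEAD motif on the opposite strand. Over the full promoter window of 300 bases, which reaches 50 bases past the start, KANK4 had 49.0% GC with 18 CpG dinucleotides and KANK3 had 68.7% GC with 23, against a median of 58.7% GC in the 35116 promoter windows of the table. RefSeq windows were given for 8 of the 10 genes, 11 windows in all because KANK1 has several. Of these 11, 2 held the TEAD motif (KANK3 and a KANK1 window) and 6 held an E-box, while 0 held the AP-1 motif and 0 the CArG box. Among all windows the shares were 14.0%, 68.7%, 7.71% and 1.29% in the same order. A match describes these letters only.

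KANK2 supplied most KANK transcripts in these cells. Scaled to the length of all annotated exons, KANK2 was at 25.4 ± 0.596 CPM per kilobase (SD, n = 3) in control cells, and it made up 94.5% ± 0.0577 of the summed KANK level. With overexpression its share was 93.3% ± 0.361 (SD, n = 3). The other KANK genes were all below 1 CPM per kilobase in control cells on this scale.

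KANK4 (ENSG00000132854, chromosome 1, 62236165 to 62319434 of GRCh38, minus strand), which encodes a KANK protein known from kidney podocytes, was the lowest of its family in control cells. It had 49, 42 and 46 counts in control replicates 1, 2 and 3, and 161, 205 and 165 counts in overexpressing replicates 1, 2 and 3. The corresponding expression was 2.01, 1.97 and 1.88 CPM in control cells and 6.91, 9.11 and 6.50 CPM with overexpression. Every overexpressing library lay well above the control libraries, and replicate 2 was the highest. The fitted log2 fold change was 1.94 (standard error 0.161), a 3.83-fold difference. Leaving out any 1 library gave 1.77 to 2.03, and the value was 1.99 with the GC and length trend removed. The control libraries varied less (3.47% coefficient of variation) than counting alone would give (14.8%), whereas the overexpressing libraries varied more (18.7% against 7.52%). The share of KANK4 in the summed KANK level was 1.07% ± 0.0153 in control cells and 3.66% ± 0.693 with overexpression (SD, n = 3 in each group).

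KANK3 (ENSG00000186994, chromosome 19, 8322584 to 8343262, minus strand), the KANK gene with the shortest annotated coding sequence (2463 bases), fell. Control replicates 1, 2 and 3 had 58, 55 and 60 counts, and overexpressing replicates 1, 2 and 3 had 29, 22 and 45 counts. Expression went from 2.47 ± 0.101 to 1.33 ± 0.405 CPM (SD, n = 3), and overexpressing replicate 3, at 1.77 CPM, was the closest to control. This is 1.83-fold lower, or -0.87 on the log2 scale with a standard error of 0.207 and an adjusted p of 0.018. The call was lost without control replicate 1 (adjusted p = 0.0595) and without control replicate 2 (0.0908). With the GC and length trend removed, the log2 fold change was -0.57 and the gene was not called (adjusted p = 0.0697). Exons of RPS28, a ribosomal protein gene on the opposite strand at 106 CPM in control cells, overlap 365 bases or 11.4% of the KANK3 exons. The strand setting of the counting is not stated, so KANK3 reads there are uncertain. RPS28 itself was not called (log2 fold change -0.18, adjusted p = 0.131).

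KANK1 and KANK2 were slightly higher in every overexpressing library without passing the test. KANK1 (ENSG00000107104, chromosome 9, 470291 to 746105), the founding member of the family, had 298, 214 and 251 counts in control replicates 1, 2 and 3 and 292, 294 and 320 counts in overexpressing replicates 1, 2 and 3, or 10.8 ± 1.21 and 12.7 ± 0.29 CPM (SD, n = 3). Control replicate 1, at 12.2 CPM, lay near the lowest overexpressing library at 12.5 CPM, and the 95% interval of the log2 fold change ran from 0.01 to 0.45 (adjusted p = 0.118). With the GC and length trend removed KANK1 was at 0.23 (adjusted p = 0.0976). KANK2 (ENSG00000197256, chromosome 19, 11164270 to 11197791), also known as a binding partner of steroid receptor coactivators, was at 194 ± 4.55 CPM in control and 215 ± 8.38 CPM in overexpressing cells (SD, n = 3). Its log2 fold change was 0.14 with a 95% interval from 0.03 to 0.26 (adjusted p = 0.0779). KANK2 was called without overexpressing replicate 1 (adjusted p = 0.029). It was also called with the GC and length trend removed, at a log2 fold change of 0.28 (adjusted p = 0.0014), which is the gene gained in that fit.

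CARMIL2 (ENSG00000159753, chromosome 16, 67644988 to 67657569, plus strand), also called RLTPR and known for its part in CD28 costimulation of T cells, was at 13.1, 15.5 and 11.3 CPM in control replicates 1, 2 and 3. In overexpressing replicates 1, 2 and 3 it was at 30.2, 34.5 and 27.9 CPM. These values rest on 277 to 330 counts in each control library and 705 to 776 counts in each overexpressing library. The groups lay far apart, and the spread within each group was wider than counting alone would give (15.7% against 5.69% in control cells). The fitted log2 fold change was 1.22 (standard error 0.121), which is a 2.32-fold difference, and leaving out any 1 library gave 1.11 to 1.34. With the GC and length trend removed the fold change was larger, 1.46 on the log2 scale. Exons of ACD on the opposite strand overlap 58 bases of its exons, and ACD had a log2 fold change of -0.17 (adjusted p = 0.125).

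The other CARMIL genes differed from CARMIL2 in level and in size of change. CARMIL1 (ENSG00000079691, chromosome 6, 25279078 to 25620530), the broadly expressed family member, was at 41.4, 39.4 and 41.5 CPM in control replicates 1, 2 and 3 and at 44.5, 48.3 and 52.9 CPM in overexpressing replicates 1, 2 and 3. It rose by 0.25 on the log2 scale with a standard error of 0.075 (adjusted p = 0.0383), and by 0.19 with the GC and length trend removed (adjusted p = 0.0474). The CARMIL1 call was lost without control replicate 1 (adjusted p = 0.115), control replicate 2 (0.149), control replicate 3 (0.06) or overexpressing replicate 3 (0.164).

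CARMIL3 (ENSG00000186648, chromosome 14, 24052009 to 24069729), known mainly from the nervous system, was the lowest of the 10 genes. It had 20, 13 and 17 counts in control replicates 1, 2 and 3 and 7, 6 and 10 counts in overexpressing replicates 1, 2 and 3, so counting error alone is 24.5% and 36.1% per library. It passed the filter on low counts in 3 of 3 control libraries and 0 of 3 overexpressing libraries. A gene kept this way had to be lower in every overexpressing library, so its p-values do not support the direction. CARMIL3 fell 2.19-fold, or -1.13 on the log2 scale with a standard error of 0.299 (adjusted p = 0.0266). The call was lost without control replicate 1 (adjusted p = 0.112), control replicate 2 (0.0739), overexpressing replicate 2 (0.074) or overexpressing replicate 3 (0.0634). It was also just missed with the GC and length trend removed (log2 fold change -0.94, adjusted p = 0.0521), and DESeq2 gave the gene no adjusted p.

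The balance within the CARMIL family moved accordingly. Per kilobase of annotated exons, CARMIL1 made up 76.4% ± 3.06 of the summed CARMIL level in control cells and 63.5% ± 3.65 with overexpression (SD, n = 3). CARMIL2 made up 22.2% ± 3.18 and 36.0% ± 3.71, and CARMIL3 1.37% ± 0.2 and 0.431% ± 0.086. With canonical transcript lengths the CARMIL2 share was 28.2% ± 3.78 in control cells and 43.7% ± 4.01 with overexpression. CARMIL1 stayed the most abundant CARMIL gene in both groups.

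**Figure D2:**
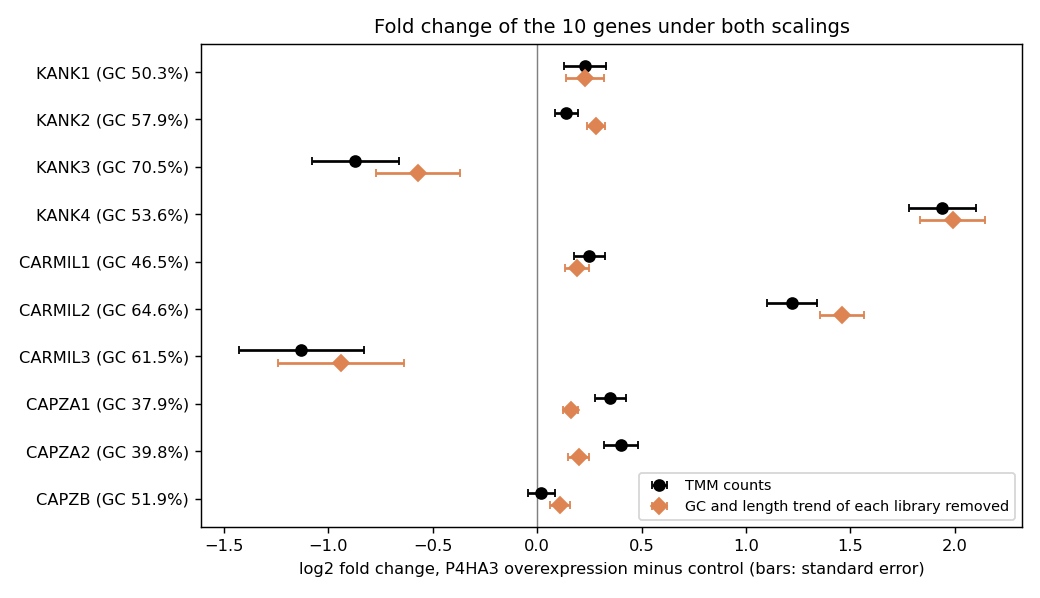
Log2 fold change (P4HA3 overexpression minus control) of the 10 genes with its standard error, from the TMM-normalised counts (black circles) and after removing the trends on GC content and length (orange diamonds). KANK4 is at 1.94 and 1.99 and CARMIL2 at 1.22 and 1.46, whereas the GC-poor CAPZA1 and CAPZA2 move from 0.35 and 0.40 to 0.16 and 0.20.

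Both alpha subunits of capping protein rose, and the beta subunit was not called. CAPZA1 (ENSG00000116489, chromosome 1, 112619805 to 112671616) was at 158, 163 and 178 CPM in control replicates 1, 2 and 3 and at 193, 232 and 208 CPM in overexpressing replicates 1, 2 and 3. The lowest overexpressing library thus lay above the highest control library. The rise was 0.35 on the log2 scale with a standard error of 0.0747 (adjusted p = 0.0132). The call was lost without control replicate 1 (adjusted p = 0.0715), control replicate 2 (0.0786) or overexpressing replicate 3 (0.0559). With the GC and length trend removed the log2 fold change was 0.16 (adjusted p = 0.0138).

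CAPZA2 (ENSG00000198898, chromosome 7, 116811070 to 116922049), which encodes the other alpha subunit from a coding sequence of the same length (858 bases each), was at 78.4, 69.4 and 83.7 CPM in control replicates 1, 2 and 3. Its expression was 93.5, 109 and 103 CPM in overexpressing replicates 1, 2 and 3, again without overlap. The rise was 0.40 on the log2 scale with a standard error of 0.0808 (adjusted p = 0.0107). It was not called without control replicate 2 (adjusted p = 0.0627) or overexpressing replicate 3 (0.0545), and with the trend removed it was 0.20 (adjusted p = 0.0171). The transcripts of both alpha subunits are the most GC-poor of the 10.

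CAPZB (ENSG00000077549, chromosome 1, 19338775 to 19485539) was at 256, 269 and 236 CPM in control replicates 1, 2 and 3 and at 273, 253 and 249 CPM in overexpressing replicates 1, 2 and 3. These ranges overlap, and the log2 fold change was 0.02 with a 95% interval from -0.12 to 0.17 (adjusted p = 0.801). With the GC and length trend removed it was 0.11 (adjusted p = 0.124). CAPZB was called only when a replicate block was added to that fit (adjusted p = 0.0455), in which 25.1% of all genes were called. The difference between the alpha and beta subunits was not tested gene against gene.

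As a ratio within each library, the summed CPM of CAPZA1 and CAPZA2 over that of CAPZB was 0.921, 0.863 and 1.11 for control replicates 1, 2 and 3. For overexpressing replicates 1, 2 and 3 it was 1.05, 1.35 and 1.25. Control replicate 3 lay above overexpressing replicate 1, so the groups overlap in this ratio. CAPZA1 was the main alpha subunit throughout, and its ratio to CAPZA2 per kilobase of annotated exons was 5.15 ± 0.409 in control and 4.94 ± 0.121 in overexpressing cells (SD, n = 3). CAPZA3, the testis form of the alpha subunit, had 0 counts in all 6 libraries, as did the 8 annotated pseudogenes of KANK1, CARMIL2, CAPZA1 and CAPZB.

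Levels could be ordered between genes only after scaling to length, and the order depended on which length was used. Per kilobase of all annotated exons, the order in control cells was CAPZA1 (47.5), KANK2 (25.4), CAPZB (13.3), CAPZA2 (9.27), CARMIL1 (5.94), CARMIL2 (1.73), KANK3 (0.768), KANK1 (0.432), KANK4 (0.287) and CARMIL3 (0.106 CPM per kilobase), and the libraries of no neighbouring genes overlapped. With overexpression KANK4 moved up past KANK3 and KANK1 to 1.10 CPM per kilobase. CAPZB overlapped CAPZA2, and KANK1 overlapped KANK3.

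The annotation lists 19094 exonic bases for CAPZB and 25055 for KANK1, against 1675 and 5070 bases in their canonical transcripts. Per kilobase of canonical transcript CAPZB was therefore first in control cells, at 152 ± 10.2 CPM per kilobase (SD, n = 3), and CAPZA1 second at 70.5 ± 4.32. KANK1, at 2.14 ± 0.238, was above KANK3 on this scale and stayed above KANK4 with overexpression. KANK4 passed KANK3 on both scales. The ratio of alpha to beta subunits per kilobase in control cells was 4.30 with all exons and 0.568 with canonical transcripts, so no stoichiometry can be read from it. Its log2 difference between the groups was 0.33 with either length.

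**Figure D3:**
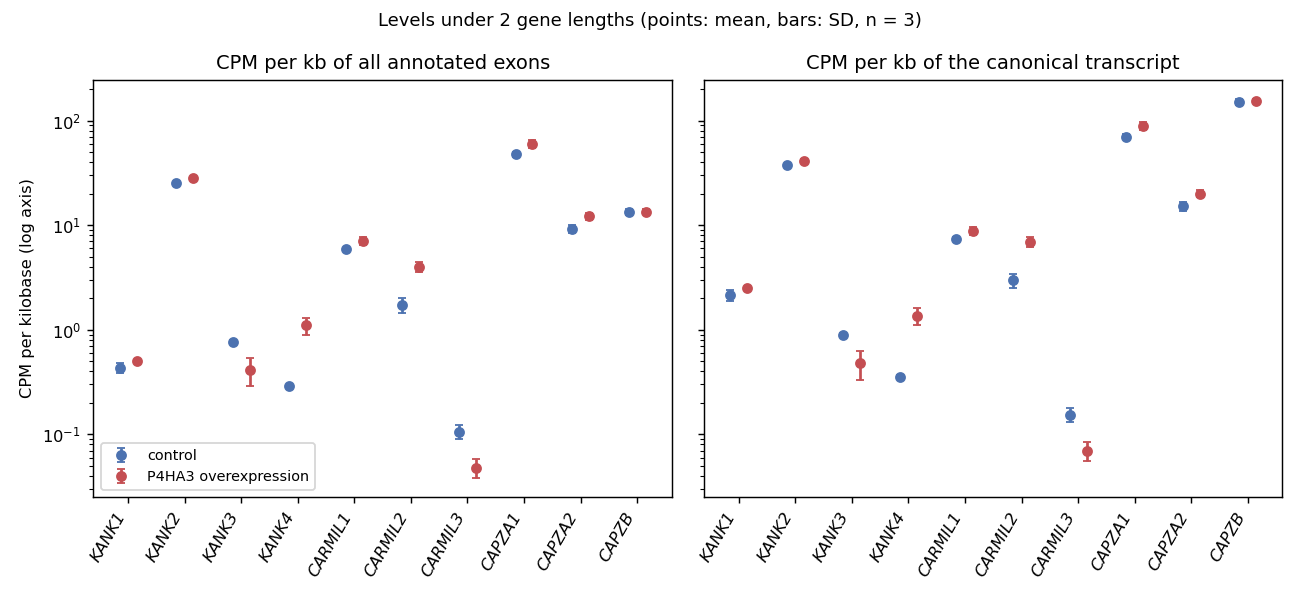
CPM per kilobase of the 10 genes on a log axis, scaled to all annotated exons (left) and to the canonical transcript (right), as mean and SD of 3 control (blue) and 3 overexpressing (red) libraries. CAPZB and KANK1 shift most between the panels, and KANK4 lies below KANK3 in control cells and above it with overexpression in both.

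The wider actin and adhesion machinery was described with 7 lists of 143 genes, of which 128 were tested. Of these, 26 rose and 15 fell, and 32.0% were called against 20.8% of all genes. The median log2 fold change was 0.036 beside 0.006 over all genes tested. The number called changed with the libraries used. Without control replicates 1, 2 and 3 in turn, 11, 10 and 45 list genes were called beside 5.09%, 3.47% and 20.8% of all genes. Without overexpressing replicates 1, 2 and 3 in turn, 71, 30 and 13 were called beside 35.9%, 14.3% and 5.89% of all genes. Of the 32 called genes named by rule in these lists, 9 kept their call in all 6 of these fits: TLN2, FHOD1, GSN, TNS1, PARVA, FERMT2, LIMA1, CCN1 and TAGLN. The rule names at most 3 rises and 3 falls per list, so other called genes are left out of this count. The share of all genes that kept their call in all 6 fits was not counted, so nothing about the lists follows from it.

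Of 19 tested genes in the list of KANK partners, which also held a paralog of a partner, 4 rose and 1 fell. That is 26.3% called beside 20.8% of all genes, and the median log2 fold change of the list was 0.187. TLN2, a talin that couples integrins to actin, rose from 55.8 ± 1.06 to 72.6 ± 2.28 CPM (SD, n = 3, log2 fold change 0.38, adjusted p = 0.00291). The more abundant talin gene TLN1 was at 340 ± 12.8 and 342 ± 5.6 CPM (SD, n = 3, log2 fold change 0.01, adjusted p = 0.908). CLASP2, a microtubule plus-end protein of the cortical complex, rose by 0.33 on the log2 scale (adjusted p = 0.0315), but was not called with the GC and length trend removed (0.14, adjusted p = 0.0617) or without overexpressing replicate 2 (0.22, adjusted p = 0.0625). NCOA1, a steroid receptor coactivator, had a log2 fold change of 0.33 (adjusted p = 0.0328). KIF21B, a kinesin paralog of the KANK partner KIF21A, fell from 3.17 ± 0.436 to 1.95 ± 0.13 CPM (SD, n = 3, adjusted p = 0.0152).

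Of 17 tested regulators and partners of capping protein, 4 rose and 4 fell, which is 47.1% called beside 20.8% of all genes. With the GC and length trend removed, 2 of them were called higher and 3 lower, in a fit that called 18.5% of all genes. TWF1 and TWF2 encode the twinfilins, which bind capping protein and actin monomers, and they moved in opposite directions. TWF1 rose with a log2 fold change of 0.57 (adjusted p = 0.0497), with overexpressing libraries that spread widely (81.3 ± 25.4 CPM, SD, n = 3). Without overexpressing replicate 2 it was at 0.30 (adjusted p = 0.0624), and TWF1 was called in 1 of the 6 fits that left out a library. TWF2 fell with a log2 fold change of -0.47 (adjusted p = 0.00864). With the trend removed they were at 0.31 (adjusted p = 0.0681) and -0.22 (adjusted p = 0.022). TRIO, a guanine nucleotide exchange factor that binds CARMIL1, rose from 178 ± 11.2 to 242 ± 32.8 CPM (SD, n = 3, adjusted p = 0.0111), and WASHC2C, a capping-protein-binding subunit of the WASH complex, rose by 0.23 on the log2 scale (adjusted p = 0.0362). CAPG, a barbed-end capper of the gelsolin family, fell with a log2 fold change of -0.42 (adjusted p = 0.0101), and PLEKHO1, which binds capping protein, with -0.52 (adjusted p = 0.0173, and 0.104 with the trend removed).

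The Arp2/3 complex builds branched actin networks. Of its 21 tested genes and activators, 4 rose and 1 fell, which is 23.8% called beside 20.8% of all genes. NCKAP1, ABI1 and ACTR3 rose with log2 fold changes of 0.36, 0.29 and 0.27. These are GC-poor transcripts (35.0% to 39.2%), and with the trend removed they were at 0.07, 0.09 and -0.01, and none of these 3 was called. NCKAP1 was at 0.22 without overexpressing replicate 2 (adjusted p = 0.0615). ARPC1B fell to 1.14 ± 0.111 CPM from 1.90 ± 0.0431 CPM (SD, n = 3, adjusted p = 0.0167).

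Formins and Ena/VASP proteins elongate filaments and compete with capping protein at barbed ends. Of 12 tested, 2 rose (DIAPH3 and ENAH, with log2 fold changes of 0.51 and 0.40) and 4 fell, among them FMNL3 (-0.47), FHOD1 (-0.43) and FHOD3 (-0.42). These 5 genes kept their call with the trend removed, where 2 genes of this list were called higher and 3 lower. Beside these counts, 9.36% of all genes were called higher and 11.4% lower before the trend was removed. With the trend removed these shares were 10.6% and 7.94%. Among 18 tested genes of filament ends and turnover, 4 rose and 3 fell, which is 38.9% called beside 20.8% of all genes. GSN, the severing and capping protein gelsolin, fell from 114 ± 5.32 to 88.7 ± 2.34 CPM (SD, n = 3, adjusted p = 0.00377). So did TMSB4X, the actin monomer binder thymosin beta-4, from 1260 ± 73.5 to 1010 ± 83.7 CPM (SD, n = 3, adjusted p = 0.0197), and CORO1B, a coronin, with a log2 fold change of -0.31 (adjusted p = 0.0182). CAP2, TMOD3 and CFL2, a cyclase-associated protein, a pointed-end capper and a cofilin, rose with log2 fold changes of 0.32, 0.27 and 0.24. With the trend removed CORO1B, TMOD3 and CFL2 were at -0.08, 0.02 and -0.02 and were not called.

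In the focal adhesion core, 4 of 22 tested genes rose and 2 fell, which is 27.3% called beside 20.8% of all genes. FERMT2 encodes kindlin-2, an integrin activator, and rose from 199 ± 10.9 to 280 ± 30.3 CPM (SD, n = 3, adjusted p = 0.00397). PARVA, which encodes the actin-binding adaptor alpha-parvin, rose from 135 ± 1.48 to 173 ± 0.326 CPM (SD, n = 3, adjusted p = 0.00188). TNS1, the adhesion adaptor tensin-1, fell from 15.9 ± 0.687 to 9.92 ± 1.03 CPM (SD, n = 3, adjusted p = 0.00274), and TNS4, another tensin, fell by 0.28 on the log2 scale (adjusted p = 0.0139, and 0.0516 with the trend removed).

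Targets of the MRTF/SRF pathway, which senses the pool of actin monomers, had 5 called genes of 23 tested, all of them higher, or 21.7% beside 20.8% of all genes. TAGLN, the actin-binding protein transgelin, rose from 8.83 ± 0.441 to 17.2 ± 0.612 CPM (SD, n = 3, log2 fold change 0.96, adjusted p = 0.000436). CCN1, a secreted matrix protein, rose with a log2 fold change of 0.78 (adjusted p = 0.000573) and LIMA1, an actin bundling protein, with 0.66 (adjusted p = 0.00126). With the trend removed, where 10.6% of all genes were called higher and 7.94% lower and the median over all genes was 0.019, 12 genes of this list were called higher and 1 lower, with a median of 0.141 in place of 0.039. In that fit 8 genes of the focal adhesion list were called higher and 1 lower.

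**Figure D4:**
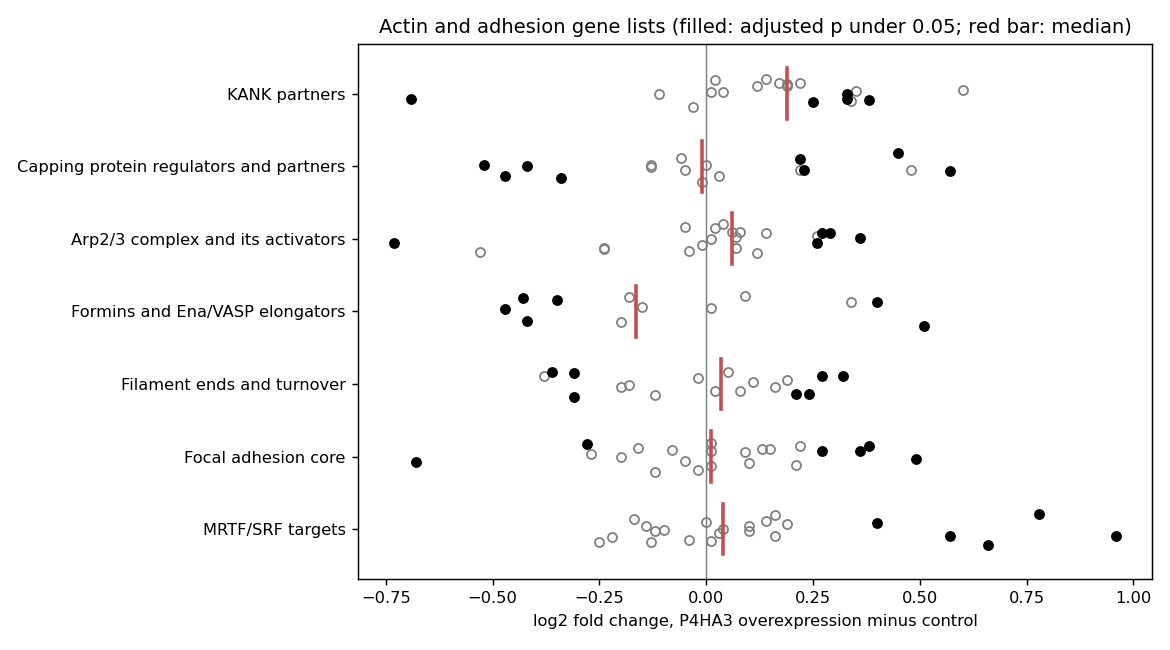
Log2 fold change (P4HA3 overexpression minus control) of each tested gene in 7 actin and adhesion lists, filled where the adjusted p was under 0.05, with the list median as a red bar. The medians lie between -0.164 for formins and Ena/VASP proteins and 0.187 for KANK partners, and the called genes lie on both sides of 0 in every list except the MRTF/SRF targets.

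The genes next to KANK4 and CARMIL2 did not share the size of their change. Of the 10 nearest protein-coding genes of KANK4, 7 were tested and 1 was called, or 14.3% beside 20.8% of all genes. This was USP1, a deubiquitinase of DNA repair, which rose from 44.5 ± 5.00 to 60.8 ± 13.1 CPM (SD, n = 3, log2 fold change 0.45, adjusted p = 0.0415). USP1 was not called with the trend removed (0.24, adjusted p = 0.0516) or without overexpressing replicate 2 (0.27, adjusted p = 0.0586). FOXD3, NFIA, PATJ, TM2D1 and ATG4C, none of them called, had log2 fold changes of -0.32, -0.21, -0.19, -0.05 and 0.26.

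Of the 10 neighbours of CARMIL2, 9 were tested, and 55.6% of these were called beside 20.8% of all genes. CTCF, the chromatin insulator protein gene upstream of CARMIL2, rose with a log2 fold change of 0.31 (adjusted p = 0.00669) and kept its call in all 6 fits that left out a library. C16orf86, PARD6A, ENKD1 and RIPOR1 fell, with log2 fold changes of -0.80, -0.56, -0.30 and -0.30. With the trend removed, PARD6A alone of these 4 was still called (adjusted p = 0.0498). The other 4 were at -0.29 (HSD11B2), -0.24 (ATP6V0D1), -0.17 (ACD) and 0.06 (GFOD2).

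The genes whose profile over the 6 libraries lay closest to KANK4, by the root mean square distance of centred log2 CPM among genes whose mean over the 6 libraries was at least 1 CPM, were MAP2 (0.436), ZNF165 (0.444) and MMP1 (0.466). The closest to CARMIL2 were LSM12P1 (0.181), TAGLN (0.188) and MAP2 (0.193). ZNF165 and MMP1 were below 1 CPM in control replicates 1 and 2 and pass this limit through the overexpressing libraries. MAP2, a microtubule-associated protein best known from neurons, reached at most 12.2 CPM in a control library and was at 20.6, 30.6 and 21.8 CPM in overexpressing replicates 1, 2 and 3. Like KANK4 and CARMIL2, it was highest in overexpressing replicate 2. LSM12P1 is annotated as a pseudogene, so its reads are uncertain. These distances describe 6 libraries in 2 groups, and any gene with a similar difference between the groups comes close.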

How the data were processed

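Poly-A RNA was sequenced from 6 libraries of SiHa PR cells. The supplementary methods name strand-specific dUTP libraries, a DNBSEQ-T7 sequencer, alignment to GRCh38 (Ensembl annotation) with STAR and gene counts by HTSeq, whereas the submitters' processing notes name HISAT2. Versions of these tools and the strand setting are not given in the sources used here. The deposited values are the authors' raw counts per gene, without normalization, and 60463 of 60664 identifiers matched GENCODE v44 on GRCh38. The members, gene lists and tests were chosen with earlier results of these data known.

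The quasi-likelihood test of edgeR 4.0.16 in R 4.3.3 was run after filterByExpr (minimum count 10) and TMM scaling. Its p-values are two-sided and were adjusted by Benjamini-Hochberg over 15130 genes, and a gene was called at an adjusted p under 0.05. All adjusted p-values are from this test unless another is named. Standard errors are the log2 fold change divided by the root of F. The trend on GC content and length was removed as an offset fitted per library with mgcv 1.9.3. Genes named in the text are the 10 members, P4HA3, up to 3 called rises and 3 called falls per list, the tested neighbours and the 3 closest profiles. TLN1 was added outside this rule, beside its paralog TLN2. Markers named as examples were chosen after their values were seen. On simulated counts for the same comparison (14963 genes, 200 changed), 88.1% of 2-fold and 65.7% of 1.5-fold changes were recovered, and 6.67% of calls were false. The simulated libraries held no trend on GC content or length and few changed genes, so these shares need not hold for the real libraries. Alternatives were DESeq2 1.42.0, limma-voom (limma 3.58.1), edgeR's exact test, other normalizations and filters, the trend removal, a replicate block and each library left out in turn. Protein sequences were not analysed here. A tested neighbour of KANK4 is not reported here.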

Additional observations from a re-analysis of the deposited data

How the results depend on the processing

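With each library left out in turn, the genes changed with P4HA3 overexpression ranged from 534 to 5530 around 3147, the called genes among the 8 members not chosen for their change from 0 to 6 around 5, the called genes of the 7 lists from 10 to 71 around 41, and the log2 difference of the alpha to beta ratio from 0.25 to 0.43. At an adjusted p under 0.01 the 3 counts were 728, 0 and 12. CAPZB ran from -0.024 to 0.070, below 0 without control replicate 3 (-0.024) or overexpressing replicate 1 (-0.016), and TM2D1 from -0.135 to 0.023, above 0 without overexpressing replicate 2. With the GC and length trend removed, alone and with the replicate block, ACTR3 (-0.013 and -0.019), CFL2 (-0.020 and -0.021), ATG4C (-0.002 and -0.003) and ACD (0.086 and 0.086) reversed, and none of them was called there. The cause was not tested. Deviations of same-numbered libraries correlated at r = 0.25, -0.049 and 0.03, and 3 of 6 libraries correlated best with their own number. Control replicate 3 and overexpressing replicate 2 reached 0.268. With so few libraries this cannot exclude a pairing. The numbers were not treated as pairs, and the replicate block gave 4313 calls. CAPZB was called only with the trend removed and the replicate block together (log2 fold change 0.11, adjusted p = 0.0455). Depth limits CARMIL3 most, with at most 20 counts in a library.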
